A study of Mus musculus with 12 samples.

Results

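The microRNA miR-744 was followed here in small RNA libraries of mouse retina, as all reads aligned to its precursor mmu-mir-744, which lies in an intron of Map2k4. These were 17801 of the 62878432 reads counted in 12 libraries, on 1 of 1490 precursors seen, and they made up 157 distinct sequences. Reads lying before the precursor's midpoint were assigned to the 5p arm and those after it to the 3p arm. No read sequence of mmu-mir-744 also aligned to another precursor. There were 6 libraries from retinas of db/db mice treated with Keluoxin, a Chinese herbal capsule, and 6 from db/db retinas labelled model, read here as mice that did not receive Keluoxin. All 12 share the db/db genotype, a leptin receptor defect that makes mice obese and diabetic. The strain label names KsJ, but the number before BL in it differs in every sample, so the background is not taken from it. No mice without diabetes were analysed here. The sources used here give no age, dose or length of treatment. The labels give the retina as tissue, but their extraction protocol starts from a pellet of exosomes, and nothing in them tells whether each sample is its own animal. The p-values therefore reflect only sample-to-sample spread, part of which may be technical. The precursor was chosen by its 5p reads, which were fewer in the Keluoxin libraries, so levels and the balance of the arms are given as descriptions without a test, and tests were kept for the make-up of the reads within the arm.

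MicroRNAs within an intron are transcribed with the host gene or from a promoter of their own, cut from the transcript as a hairpin by Drosha, and cut again by Dicer into a duplex whose arms are named 5p and 3p. Usually most of the reads come from the arm that is loaded into Argonaute and pairs with target mRNAs through its seed, while the other arm is degraded. Enzymes can then add bases to the 3′ end: TUT4 and TUT7 add U and TENT2 adds A. The host gene Map2k4 encodes MKK4, a kinase that activates the stress kinases JNK and p38. In human kidney tubule cells miR-744 was shown to bind the transcript of the fibrotic cytokine TGFB1, and in mouse cells it was shown to raise transcription of the cyclin gene Ccnb1.

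The mature arms below, from RefSeq (GRCm38.p6), are shown because all levels refer to them, with capitals marking the seed, bases 2 to 8.
mmu-miR-744-5p: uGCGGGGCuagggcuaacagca
mmu-miR-744-3p: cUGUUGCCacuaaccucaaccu
The hairpin below, in which capitals mark these arms, is the frame for every read position given here, counted from 1 at its 5′ end.
mmu-mir-744: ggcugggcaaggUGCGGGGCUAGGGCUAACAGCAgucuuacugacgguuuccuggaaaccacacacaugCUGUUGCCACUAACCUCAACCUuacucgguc
The hairpin in the deposited files was identical in sequence to the RefSeq one. The 5p arm takes positions 13 to 34 and the 3p arm positions 70 to 91. Neither seed occurred in any other of the 1679 mature mouse miRNAs listed by RefSeq. The 5p arm is rich in G and C at 63.6% of its bases, and 1383 of the 1679 mature miRNAs had a lower share (median 52.2%). Folded alone with RNAfold, the hairpin had a predicted free energy of -44.8 kcal/mol. In that fold 18 of the 22 bases of the 5p arm were paired, 16 of them with bases of the 3p arm.

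On the GRCm38 assembly the hairpin lies at chr11:65734733-65734832 on the minus strand, the strand of Map2k4 (chr11:65688243-65788297). The 5p arm is at chr11:65734799-65734820 and the 3p arm at chr11:65734742-65734763. Of the 7 annotated Map2k4 transcripts, 5 span the hairpin, and it is intronic in each of them. In the transcript Map2k4-201 it sits in the intron of 15588 bases between exons 3 and 4, 359 bases downstream of exon 3 and 15129 bases upstream of exon 4. In Map2k4-203 and Map2k4-205, which skip the exon upstream, the intron is 36665 bases long and the nearest upstream exon is 21436 bases away. The libraries hold small RNAs, so the level of Map2k4 mRNA was not measured.

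Counted reads ranged over the libraries, with the fewest, 1933375, in Keluoxin replicate 5 and the most, 7892147, in model replicate 3. Normalized CPM are counts scaled to library size, with sizes scaled by TMM, a scaling that assumes most arms keep their level. Over 811 arms tested with edgeR, 140 were called at an adjusted p under 0.05, which is 17.3%: 75 higher (9.25%) and 65 lower (8.01%) in Keluoxin. Without model replicate 1, 244 were called, and leaving out model replicate 3, 4 or 5 gave 86, 72 or 93. Higher arms were 53.6% of the calls, against 77.4% when libraries were scaled by total counted reads and 39.6% with upper-quartile scaling. The miRNAs that mark photoreceptors, miR-182-5p, miR-183-5p and miR-96-5p, were abundant in all 12 libraries, at 36440 CPM or more. Model replicate 1 stood among the Keluoxin libraries on the first principal component of the levels, which held 52.4% of the variance.

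The 5p arm of miR-744, the arm with nearly all reads, was at about 0.519 times the model level in the Keluoxin libraries, and the groups did not overlap. In Keluoxin its lowest, median and highest levels were 156, 191 and 216 normalized CPM, from 333 to 1214 reads per library. In the model libraries they were 279.5, 360.5 and 450.5 normalized CPM, from 1183 to 2762 reads per library. The lowest model library was replicate 1 and the highest replicate 2, while Keluoxin replicates 4 and 6 were the lowest of all. The means were 188 ± 26.3 normalized CPM in Keluoxin and 363 ± 54.3 in model (SD, n = 6 each). The log2 fold change was -0.95 (SE 0.13) in the edgeR fit over all arms. As plain CPM of all counted reads, with no further scaling, the 5p arm spanned 172 to 233 in Keluoxin and 286 to 440.3 in model, again with no overlap. The order within Keluoxin changed there: replicates 5 and 6 were lowest, at 172.2 and 189.8, and replicate 4 was at 202.9. By reads, miR-744-5p ranked between 129 and 147 among annotated arms in the Keluoxin libraries, and between 88 and 116 in the model libraries.

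The size of the difference moved with the scaling as the median of all arms did. With TMM that median was at a log2 fold change of 0.03, with upper-quartile scaling at -0.23 and with total reads at 0.22. Relative to it miR-744-5p stood at -0.98, -0.98 and -0.995 on the log2 scale. Without Keluoxin replicate 4 the log2 fold change was -0.90, without model replicate 1 it was -1.01, and without both it was -1.05.

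Among the markers of cell types looked at, only miR-182-5p and miR-126a-3p did not overlap between the groups. The photoreceptor marker miR-182-5p spanned 70490 to 145500 normalized CPM in Keluoxin and 171300 to 201200 in model, while miR-183-5p overlapped between the groups. The third, miR-96-5p, leaned the other way, at 40390 to 55500 in Keluoxin and 36440 to 46900 in model. Its lowest Keluoxin library was replicate 4, and the other Keluoxin libraries were at 53600 or more. The endothelial marker miR-126a-3p spanned 909 to 1224 CPM in Keluoxin and 1432 to 1921 in model. The other arm of its precursor, miR-126a-5p, was not lower, at a mean of 208 CPM in Keluoxin and 172 in model. Its log2 fold change was 0.28 (SE 0.16, edgeR adjusted p = 0.215). The erythroid marker miR-451a-5p spanned 24.9 to 650 CPM (Keluoxin replicate 5) in Keluoxin and 20.8 to 43.4 in model. The muscle marker miR-133a-3p was at 160 CPM in Keluoxin replicate 4, at 15.85 to 27.8 in the other Keluoxin libraries and at 13.8 to 18.3 in model, and the liver marker miR-122-5p spanned 2.38 to 41.2 CPM in Keluoxin and 1.18 to 4.89 in model. The neuronal markers miR-124-3p and miR-9-5p and the pigment epithelium markers miR-204-5p and miR-211-5p overlapped between the groups. The part of these differences in the level of miR-744-5p was not tested, and in bulk tissue fewer cells of a type and less RNA per cell cannot be told apart.

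**Figure D1:**
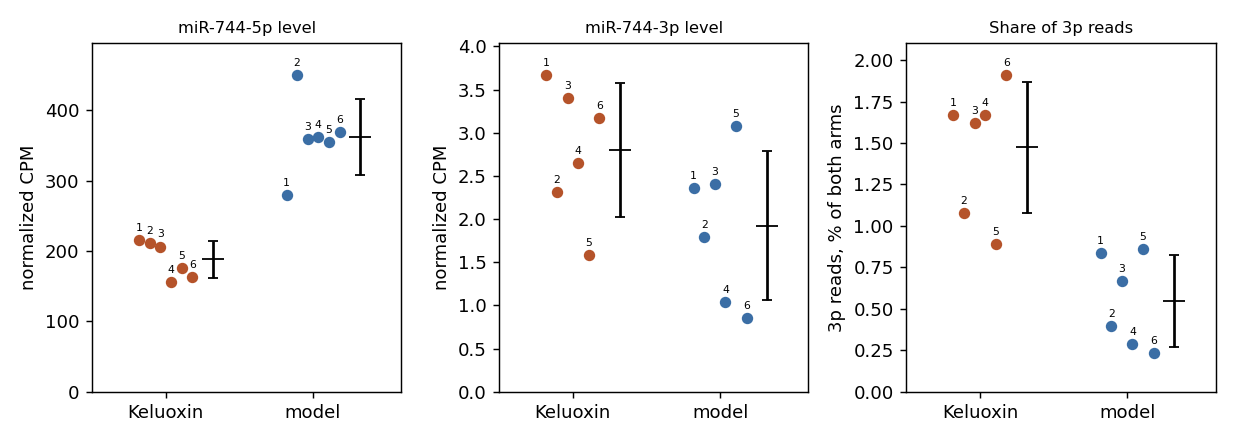
Normalized CPM of miR-744-5p and miR-744-3p and the share of 3p reads among the reads of both arms, in the 6 Keluoxin (left) and 6 model libraries (right). Points are libraries with their replicate numbers, and bars show the mean and SD. All 6 Keluoxin libraries lie below the model libraries for the 5p arm and above them for the share of 3p reads, while the 3p levels overlap.

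The 3p arm did not share the lower level. It was rare, with 3 to 20 reads in a Keluoxin library and 3 to 18 in a model library. Its lowest, median and highest levels were 1.59, 2.91 and 3.67 normalized CPM in Keluoxin, against 0.857, 2.08 and 3.08 in model, so the groups overlapped. The means were 2.80 ± 0.77 CPM in Keluoxin and 1.92 ± 0.86 in model (SD, n = 6 each), a log2 fold change of 0.55 (SE 0.32). The deposited files list sequences with at least 2 reads, so 3p sequences read a single time in a library are not counted, and the 3p values carry few reads.

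The arms therefore stood in a different ratio in the groups. Of the reads of both arms in Keluoxin, 89 of 5754 were 3p reads, or 1.55% (95% Wilson interval 1.26 to 1.90%), against 65 of 12047 in model, or 0.54% (0.424 to 0.687%). The intervals cover counting error only, since the reads carry no molecular identifiers. Per library the share spanned 0.893 to 1.91% in Keluoxin and 0.231 to 0.861% in model, without overlap. The closest libraries were Keluoxin replicate 5, the shallowest, with 3 reads of 336, and model replicate 5 with 17 of 1975. The log2 ratio of 5p to 3p reads was 6.04 ± 0.38 in Keluoxin and 7.60 ± 0.76 in model (SD, n = 6 each), a difference of -1.56. Since the ratio contains the 5p reads by which the precursor was chosen, it is not independent of the lower 5p level. Over all libraries the 3p arm held 0.865% of the reads. Among 233 annotated precursors with at least 1000 reads, 110 had a smaller share on the minor arm, and the median share was 1.21%. How often the ratio differed between the groups in other precursors was not counted. Arms of opposite sign also occurred for miR-126a (log2 fold change -0.63 for 3p and 0.28 for 5p) and miR-151 (-0.44 and 0.56), while both arms of miR-330 were lower.

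Nearly every read began at the same base. Of 17647 5p reads, 17631 started at hairpin position 13, the start of the RefSeq mature arm, and 12 started a base later. All 154 3p reads started at position 70. The share of 5p reads at the leading start was 99.88% in Keluoxin and 99.91% in model, and the difference did not pass the test (limma over the 382 arms that reached 50 reads in each library, adjusted p = 0.450, with 3.66% of arms called). The start that sets the seed was the same in nearly all 5p reads of either group.

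The 3′ ends varied more. The read sequences below were the 5 most frequent of the 5p arm and, after them, the 6th, 9th and 17th. The 6th, 9th and 17th differ from the precursor at the last base and are shown because the results on such bases turn on them. Letters are DNA as in the files, and a capital marks a base that differs from the precursor.
5p form 1: tgcggggctagggctaacagc
5p form 2: tgcggggctagggctaacagT
5p form 3: tgcggggctagggctaacagca
5p form 4: tgcggggctagggctaacagA
5p form 5: tgcggggctagggctaacag
5p form 6: tgcggggctagggctaacagcT
5p form 9: tgcggggctagggctaacagcG
5p form 17: tgcggggctagggctaacagcC
Form 3 is the RefSeq mature sequence, but it held 2676 reads, 15.2% of the 5p arm. Form 1, a base shorter at 21 nt, held 5999 reads or 34.0%. Form 2, which ends in T in place of C at the same length, held 2862 reads or 16.2%, form 4 with A held 5.58% and form 5 of 20 nt held 3.17%. Together these 5 sequences made up 74.1% of the arm. In all, 144 sequences lay on the 5p arm, of which 87 had fewer than 10 reads and 19 were found in all 12 libraries. These 19 held 91.8% of the reads.

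Most forms were lower in Keluoxin along with the arm, but not all in proportion. Form 1 was at 57.6 ± 8.74 normalized CPM in Keluoxin and 130 ± 22.8 in model, and the groups did not overlap. The mature form 3 was at 29.6 ± 3.52 CPM in Keluoxin and 53.8 ± 6.07 in model, also without overlap. Form 2 was at 25.0 ± 10.1 CPM in Keluoxin and 63.8 ± 13.4 in model, where Keluoxin reached 37.3 at most and model fell no lower than 47.0. Form 6, the 21-nt sequence followed by T, was at 8.09 ± 1.76 CPM in Keluoxin and 7.35 ± 1.87 in model, so the groups overlapped. Form 9, the same sequence followed by G, was at 7.14 ± 2.65 CPM in Keluoxin and 4.86 ± 1.65 in model, again overlapping (SD, n = 6 each throughout). Reads without any differing base were at 102 ± 9.93 CPM in Keluoxin and 216 ± 32.2 in model. These reads and the forms above are part of the 5p reads by which the precursor was chosen. Their levels are therefore given as descriptions only.

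Fewer of the 5p reads ended at the leading end, 21 nt from the start, in Keluoxin. More ended a base further, at the position of the RefSeq mature end, counting reads with a differing last base. The share ending at hairpin position 33 spanned 47.5 to 60.4% in Keluoxin with a median of 54.8%, and 60.1 to 65.6% in model with a median of 62.5%. The ranges met at their edges, where Keluoxin replicate 1 stood just above model replicate 3. The means were 54.4 ± 4.49% in Keluoxin and 62.8 ± 2.03% in model (SD, n = 6 each, over all 5p starts). In limma on log2 odds over 382 arms the leading end share fell by 0.50 (SE 0.12, adjusted p = 0.00713). Such calls were common, with 41.6% of arms called, but 30.1% were called higher and 11.5% lower, and the median estimate over all arms was 0.18. Of the 382 arms, 342 had a larger estimate than miR-744-5p. When only reads without a differing base were kept, the estimate was -0.23 and the adjusted p 0.148, so the call was lost without the reads that have a differing base. The share ending at position 34 was 28.03 ± 2.84% in Keluoxin and 20.4 ± 2.62% in model, and each Keluoxin library was above each model library. No test was run on that second end. The mean read length was 21.23 nt in Keluoxin and 21.13 nt in model, and the difference of 0.10 nt did not pass the test (95% interval -0.03 to 0.23 nt, adjusted p = 0.283, limma, with 8.12% of arms called).

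**Figure D2:**
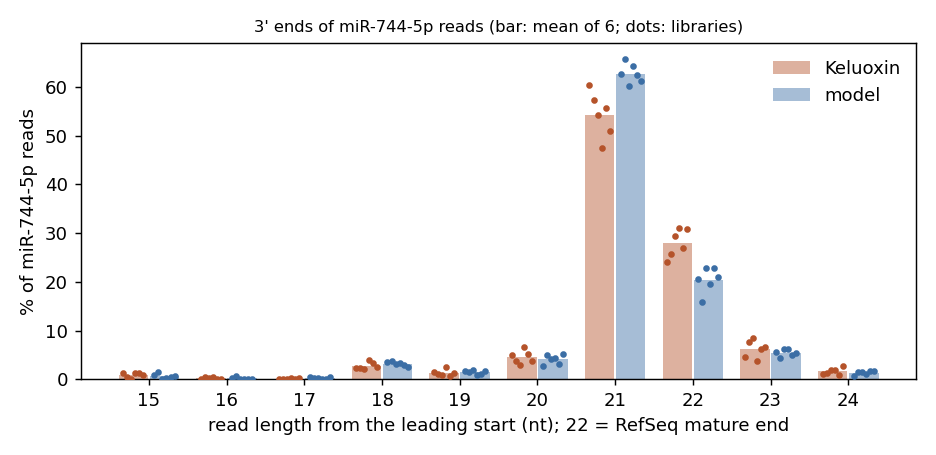
Share of miR-744-5p reads by read length, for reads from the leading start, in Keluoxin (left bars) and model (right bars). Bars are means of 6 libraries and dots are libraries. Reads of 21 nt lead in every library. Those of 22 nt, the RefSeq mature length, average 28.03% in Keluoxin and 20.4% in model, with reads that have a differing base counted.

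Of the pooled 5p reads, 35.9% differed from the precursor at the last base, as a read with an added or exchanged base would. They are called tailed here, and the source of the differing base was not tested. The files allow at most 1 differing base in a read, so tails with more differing bases are not seen. A read whose differing base is followed by a base that matches the precursor is not called tailed. It is counted below among differences before the last base. Keluoxin libraries had 36.7 ± 6.27% of such reads and model libraries 35.1 ± 2.07% (SD, n = 6 each). The difference did not pass the test (limma, estimate 0.09 on the log2 odds scale, 95% interval -0.29 to 0.47, adjusted p = 0.715, with 25.9% of arms called). Keluoxin replicate 4 had the lowest share, 26.4%, and Keluoxin replicate 2 the highest, 45.03%. U, written T in the files, was the most frequent last base of this kind and made up 61.9% of these reads. A made up 24.5%, G 10.1% and C 3.60%. An added base that equals the precursor's base cannot be seen, such as the last C of form 1 or the last A of form 3. The order of the bases, and any comparison with other arms, therefore depends in part on the precursor's sequence. Among 382 arms, 333 had a smaller share of U-tailed reads than the 22.2% of miR-744-5p, and the median was 5.02%.

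The kinds of last base did not move alike. The share of reads ending in a differing G spanned 3.39 to 8.35% in Keluoxin and 2.05 to 3.09% in model. Every Keluoxin library lay above every model library, with Keluoxin replicate 4 closest to them and replicate 2 highest. The means were 5.70 ± 1.61% in Keluoxin and 2.65 ± 0.44% in model, and the share rose by 1.12 in log2 odds (SE 0.23, limma, adjusted p = 0.00313). The share ending in a differing C spanned 1.65 to 3.60% in Keluoxin and 0.613 to 1.18% in model, again with no overlap. Its means were 2.51 ± 0.75% in Keluoxin and 0.833 ± 0.215% in model (SD, n = 6 each), a rise of 1.59 in log2 odds (SE 0.24, limma, adjusted p = 0.00256). These shares were split by base after the data were seen.

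Rises of this kind were widespread over the retinal miRNAs, so the calls alone do not mark miR-744-5p. G-tailed shares were called in 52.1% of 382 arms, and 50.8% of the arms were called higher in Keluoxin, where the median estimate was 0.70. C-tailed shares were called in 61.0% of the arms, with 58.4% called higher and a median estimate of 0.72. The estimate of miR-744-5p was exceeded by 75 arms for G and by 18 arms for C. No test set miR-744-5p against the other arms. The share ending in a differing U was 20.6 ± 3.52% in Keluoxin and 22.5 ± 1.92% in model, and that ending in a differing A was 7.95 ± 1.48% in Keluoxin and 9.17 ± 0.81% in model (SD, n = 6 each). Neither difference passed the test (limma, adjusted p = 0.422 for U, with 23.6% of arms called, and 0.231 for A, with 16.5%).

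**Figure D3:**
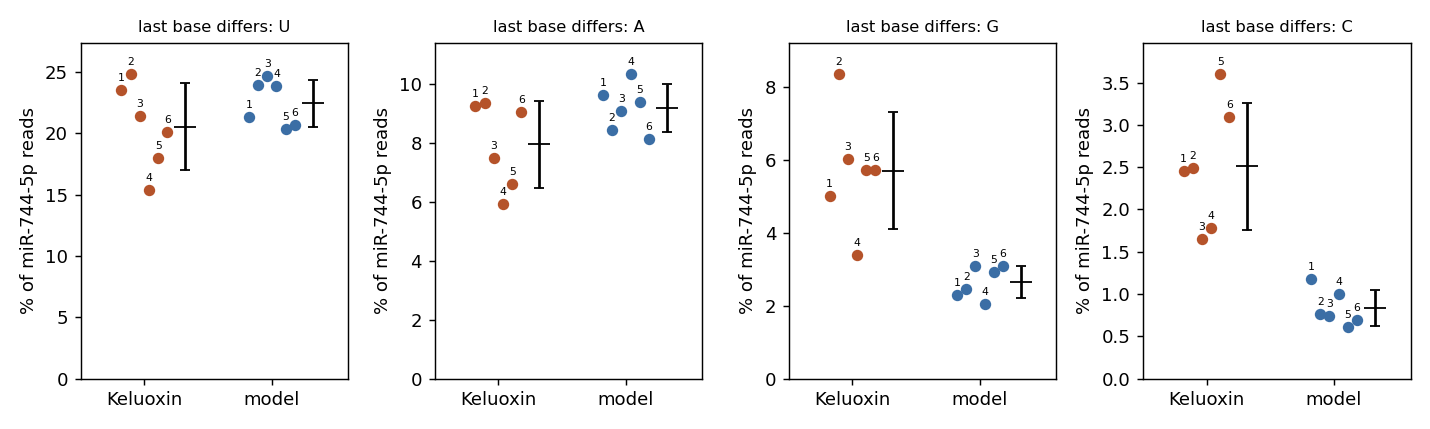
Share of miR-744-5p reads whose last base differs from the precursor and is U, A, G or C, in 6 Keluoxin (left) and 6 model libraries (right). Points are libraries with replicate numbers, and bars show the mean and SD. The groups do not overlap for G and C, and overlap for U and A.

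In absolute level the kinds of tail parted as well. U-tailed reads were at 39.4 ± 11.6 normalized CPM in Keluoxin and 81.8 ± 16.6 in model, and A-tailed reads were at 15.15 ± 4.30 in Keluoxin and 33.1 ± 4.26 in model. G-tailed reads were at 10.9 ± 4.08 CPM in Keluoxin and 9.62 ± 2.17 in model, and C-tailed reads at 4.69 ± 1.33 in Keluoxin and 2.96 ± 0.57 in model (SD, n = 6 each). The means of the G- and C-tailed reads thus were not lower, while the U- and A-tailed reads were lower without overlap. These levels contain the 5p level by which the precursor was chosen, so they are no result apart from the shares above.

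The shares also differed by the length of the part that matched the precursor. After 20 matching bases, U (form 2) took 12.9 ± 3.67% of the 5p reads in Keluoxin and 17.5 ± 1.35% in model. After 21 matching bases, U (form 6) took 4.30 ± 0.75% in Keluoxin and 2.03 ± 0.45% in model, with every Keluoxin library above every model library. G after 21 bases (form 9) took 3.72 ± 1.01% in Keluoxin and 1.34 ± 0.43% in model, and C at that place (form 17) took 1.32 ± 0.51% in Keluoxin and 0.317 ± 0.107% in model (SD, n = 6 each), both without overlap. An A at that place cannot be told from the templated base of form 3. These shares by length were looked at after the data were seen and were not tested. How many other arms parted in this way was not counted. For tails of any length, 50.8% of the 382 arms were called higher for G and 58.4% for C.

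Base differences before the last base were more frequent in Keluoxin. Such reads made up 7.06 to 10.85% of the 5p arm in Keluoxin libraries and 4.85 to 6.38% in model libraries, without overlap. The means were 8.62 ± 1.47% in Keluoxin and 5.36 ± 0.61% in model (SD, n = 6 each), a rise of 0.73 in log2 odds (SE 0.14, limma, adjusted p = 0.00131). This too was general, with 59.4% of arms called, 54.5% of arms called higher, and a median estimate of 0.57, and 127 arms had a larger estimate. Of 1140 such reads, 832 or 73.0% differed at position 18 of the read or later. Among the last 3 bases, but before the last, 795 of them differed. Such reads cannot be told from tailed reads whose further base happens to match the precursor. The 101 reads with C21T, for example, all read as form 2 followed by the precursor's A. When only bases before the last 3 were counted the estimate was -0.84 (SE 0.62, limma, adjusted p = 0.557), so no rise was seen there. That estimate rests on few reads, and sequences read a single time in a library are not counted. The most frequent were G20A, at 1.28 ± 0.82% of the 5p reads in Keluoxin and 0.645 ± 0.169% in model, and G20C, at 1.15 ± 0.63% in Keluoxin and 0.282 ± 0.140% in model (SD, n = 6 each), where positions count from 1 at the 5′ end of the read and the precursor's base comes first. Next were C21T, at 0.750 ± 0.233% in Keluoxin and 0.520 ± 0.258% in model, and A19G, at 0.755 ± 0.380% in Keluoxin and 0.420 ± 0.170% in model (SD, n = 6 each). These single differences were not tested. In the seed, bases 2 to 8, only 61 reads differed, 21 in Keluoxin and 40 in model, or 0.346% of the arm.

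**Figure D4:**
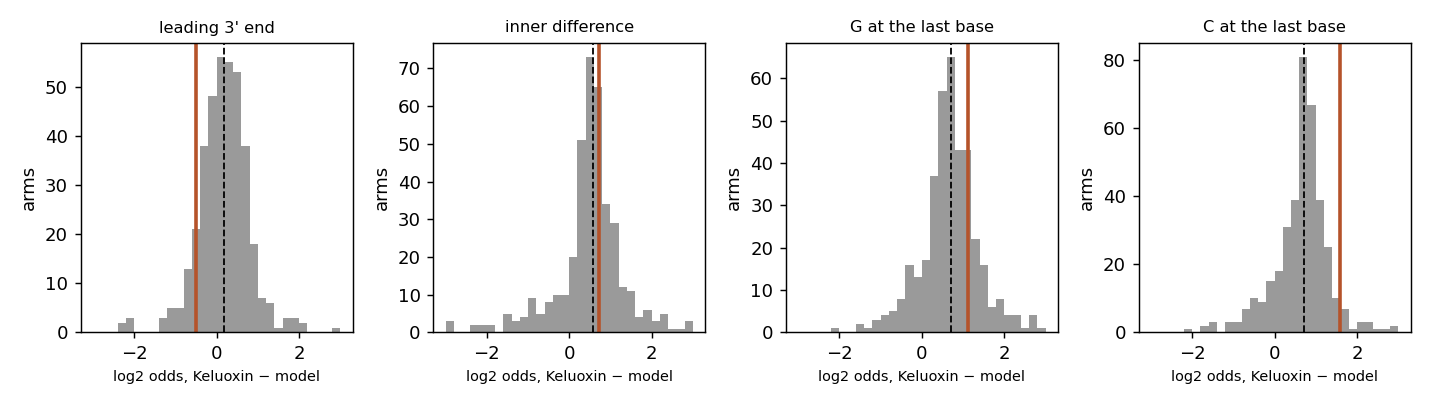
Estimates (log2 odds, Keluoxin minus model) over 382 arms for the leading 3′ end, base differences before the last base, G at the last base and C at the last base. Grey bars count the other arms, with values beyond the axis placed in its outer bars, the coloured line is miR-744-5p and the dashed line is the median of all arms. The leading end of miR-744-5p lies below a median of 0.18 at -0.50, and its C-tailed share lies above a median of 0.72 at 1.59.

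The 3p reads were too few for a test of their forms. Of the 13 sequences, the 3 most frequent are shown, since none of them is the RefSeq mature arm.
3p form 1: ctgttgccactaacctcaacT
3p form 2: ctgttgccactaacctcaacc
3p form 3: ctgttgccactaacctcaac
They held 35, 33 and 24 of 154 reads. Form 3 had 2 reads in Keluoxin, all in replicate 4, and 22 in model. Of all 3p reads, 66 or 42.9% differed at the last base, 38 of them with U. Reads ending at hairpin position 91, the mature end, numbered 31 of 89 in Keluoxin and 10 of 65 in model, and those ending at position 89 numbered 2 in Keluoxin and 25 in model.

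Several other arms followed the profile of miR-744-5p over the libraries. Of 510 annotated arms, the 5 with the highest Pearson correlation of log2 normalized CPM over the 12 libraries were miR-369-5p (r = 0.955), miR-379-3p (0.924), miR-770-3p (0.922), miR-24-1-5p (0.912) and miR-330-5p (0.904), against a median of 0.224. As these values hold the difference between the groups, the correlation of deviations from the group means is given too: 0.875 for miR-369-5p, 0.756 for miR-379-3p, 0.773 for miR-770-3p, 0.862 for miR-24-1-5p and 0.364 for miR-330-5p. The libraries share depth and scaling, and no test was made. miR-369, miR-379 and miR-770 lie in the imprinted Dlk1-Dio3 region, and miR-330 lies in Eml2. The mean level of miR-369-5p was 49.4 CPM in Keluoxin and 89.5 in model (log2 fold change -0.86, SE 0.19), and miR-330-5p was at 204 ± 28.5 CPM in Keluoxin and 327 ± 26.1 in model (SD, n = 6 each).

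MicroRNAs hosted by protein-coding genes were examined as a list of 39 precursors that includes mmu-mir-744, which shares that setting. Copies of a precursor that share most of their reads were counted as a joint arm. The arms miR-7a-5p, miR-30c-5p and miR-16-5p therefore include reads of copies that are not on the list. The arms of mmu-mir-744 itself were set aside in the counts, since the precursor was chosen by its level. Of the 67 other arms counted, 55 passed the filter on low counts, and 8 of these were called with edgeR (14.5%, against 17.3% of all arms), 1 higher and 7 lower. This split moved with the scaling, with 0 higher and 10 lower under upper-quartile scaling, 4 higher and 4 lower with total reads, and 4 higher and 5 lower when only annotated precursors were fitted. The median log2 fold change was -0.12, against 0.03 over all arms. Scaled by total reads it was 0.05, and relative to the median of all arms it was -0.15 with TMM, -0.19 with upper-quartile and -0.17 with total-read scaling. The lower arms, with their hosts, were miR-378a-3p in Ppargc1b, a coactivator gene of mitochondrial metabolism, miR-330-3p and miR-330-5p in Eml2, miR-126a-3p in Egfl7, an endothelial gene, miR-140-3p in Wwp2, miR-103-3p from the pantothenate kinase genes Pank3 and Pank2, and miR-30e-3p in Nfyc. The log2 fold change was -0.75 (SE 0.14, edgeR adjusted p = 0.00796) for miR-378a-3p, which averaged 1426 CPM in Keluoxin and 2391 in model. It was -0.63 (SE 0.11, edgeR adjusted p = 0.00515) for miR-126a-3p, and the other lower arms spanned -0.69 to -0.43. Only miR-330 was called on both arms. The opposite arms miR-378a-5p, miR-126a-5p, miR-140-5p and miR-30e-5p were not called, with log2 fold changes of 0.06, 0.28, -0.16 and -0.25. For miR-103, the 5p arm miR-103-2-5p did not pass the filter on low counts. With total-read scaling the calls of miR-140-3p, miR-30e-3p and miR-330-3p were lost (edgeR adjusted p = 0.0900, 0.181 and 0.0620). With a library left out, miR-140-3p kept its call only without model replicate 1 or 2 or Keluoxin replicate 3, and miR-30e-3p only without model replicate 1 or 6 or Keluoxin replicate 1, 2 or 3, while the other 5 lower arms kept theirs in all 12 fits. The higher arm was miR-16-2-3p in Smc4, a condensin gene, at 6.44 CPM in Keluoxin and 2.69 in model (log2 fold change 1.27, SE 0.37, edgeR adjusted p = 0.0342). That call was lost with upper-quartile scaling (edgeR adjusted p = 0.0621), with no filter (0.105), and in 8 of 12 fits that left out a library, namely model replicate 3, 4, 5 or 6 or Keluoxin replicate 1, 3, 4 or 6. The most abundant of the list, miR-26a-5p, miR-7a-5p and miR-30c-5p, did not pass the test, with log2 fold changes of 0.18, 0.02 and -0.23, of which the first turned to -0.07 with upper-quartile scaling and the second to -0.24 (and to -0.01 with RLE size factors).

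Among miRNAs known for ties to TGF-beta signalling and fibrosis, 15 beside miR-744-5p were counted, 14 were tested with edgeR and 2 were called higher (14.3% called, against 17.3% of all arms). Their log2 fold changes had a median of 0.17, and of -0.10 with upper-quartile scaling, which moves all arms down; relative to the median of all arms these were 0.13 and 0.13. The 2 called arms were of the miR-29 family, which targets collagen transcripts. miR-29a-3p averaged 9866 CPM in Keluoxin and 7937 in model (log2 fold change 0.31, SE 0.09, edgeR adjusted p = 0.0316). miR-29c-3p averaged 687 CPM in Keluoxin and 472 in model (log2 fold change 0.54, SE 0.15, edgeR adjusted p = 0.0301). Both calls ended with upper-quartile scaling, where the log2 fold change was 0.04 for miR-29a-3p and 0.28 for miR-29c-3p (edgeR adjusted p = 0.873 and 0.271). They ended as well with no filter (0.223 and 0.0989) and with the replicate number as a block (0.0795 and 0.0542). Each was also lost in 5 of 12 fits that left out a library: both without model replicate 2 or 4 or Keluoxin replicate 1 or 6, miR-29a-3p without Keluoxin replicate 3 and miR-29c-3p without model replicate 3. The abundant miR-21a-5p, which TGF-beta signalling raises, averaged 6791 CPM in Keluoxin and 7042 in model and did not pass the test, nor did let-7b-5p at 2846 CPM in Keluoxin and 2397 in model. The log2 fold changes of these 2 arms, -0.05 and 0.25, turned sign with total-read scaling for miR-21a-5p and with upper-quartile scaling for let-7b-5p.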

How the data were processed

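Per the labels' protocols, each NEBNext small RNA library took 1 µg of RNA, and inserts of 15 to 35 nt were selected. Tools listed by the submitters' processing notes are Bowtie, Novoalign, cutadapt and bcl2fastq, with no version; no genome build or miRBase release is named in the sources used here. The deposited counts are raw whole reads per distinct sequence and precursor, per the file headers. Listed sequences were 15 to 51 nt long and had 2 reads or more. The other deposited values, read length and first and last position on the precursor (counted with 5 added), have no normalization. The authors divided the count of a sequence by the number of precursors it matched; the undivided count kept in the tag name was used, once per sequence.

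Reads were summed by precursor arm (2148 arms). Levels were fitted with edgeR 4.0.16 (TMM, its filter on low counts, quasi-likelihood test, 811 arms, 511 of them annotated) in R 4.3.3. Shares of reads were compared with limma 3.58.1 on log2 odds, 0.5 added, over the 382 arms that reached 50 reads in each library. Calls are Benjamini-Hochberg adjusted p under 0.05 over all arms fitted. Exact permutation tests used all 924 assignments, whose smallest two-sided p is 0.00216. On simulated counts for the Keluoxin against model levels (811 arms) the fit recovered 19.4%, 55.2% and 78.8% of arms changed 1.5-, 2- and 4-fold and called 0.327% of unchanged ones; for the tail share (382 arms) limma recovered 73.3% of arms shifted by 1 log2 odds. DESeq2 1.42.0 was an alternative. Sequences came from RefSeq, introns from GENCODE, and folds from RNAfold 2.7.2. Groups and replicate numbers follow the titles and labels.

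Named arms were miR-744 itself, its 5 most frequent 5p and 3 most frequent 3p sequences, the 5 arms most correlated with miR-744-5p, and the called and 3 most abundant members of each list; 5p forms 6, 9 and 17 were added after their values were seen. The precursor, lists and tests were chosen with earlier results of these data known. No pair of libraries in a group was a copy (smallest chi-square per degree of freedom 70.7).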

Additional observations from a re-analysis of the deposited data

Results flagged for a closer look

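The share of miR-744-5p reads at the leading start was 99.58% in model replicate 1, lower than in the other model libraries, of which the nearest had 99.89%. It was picked out because its gap to the nearest library was a large part of the range of its group. Of 24 groups of 6 libraries examined, this was the 1 picked out, and chance picks out about 1 in 20. The 5p level, the 3p level and the arm ratio held no such library.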

How the results depend on the processing

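The log2 fold change of the 5p level ranged from -0.77 (total counted reads) to -1.21 (upper quartile). With a library left out it ranged from -1.06 to -0.88. The precursor was chosen for this lower level in the same libraries, so these ranges and those of the arm ratio are descriptions only. The 3p level stayed above 0, at 0.29 with upper quartile and 0.41 to 0.72 with a library left out. The arm ratio spanned -1.71 to -1.37 with a library left out and was -1.79 in reads without a differing base. The leading end share lost its call in reads without a differing base (-0.23, adjusted p = 0.148), and kept it with each library left out (-0.57 to -0.42). The inner difference turned to -0.84, with a wide SE of 0.62, when bases among the last 3 were left out, and otherwise spanned 0.65 to 0.79. With a library left out, the share with a differing last base spanned -0.013 to 0.22, turning sign without Keluoxin replicate 2; counting a differing base among the last 3 gave 0.32 (adjusted p = 0.0611). The mean read length (0.07 to 0.13 nt) and the leading start share (-1.997 to -1.07) passed the test in no such fit.

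Calls over all arms numbered 140 of 811 tested, against 236 of 1344 with DESeq2 and 75 of 508 with annotated precursors only. Without model replicate 1 and Keluoxin replicate 4 they numbered 228 of 801. They spanned 72 (without model replicate 4) to 244 (without model replicate 1) when a library was left out, with 86 without model replicate 3 and 93 without model replicate 5. Counted with miR-744-5p, calls in the list of hosted miRNAs, 9 of 57 tested arms, spanned 6 to 11 with a library left out. Under the other settings they spanned 7 (no filter) to 13 (DESeq2), both from 69 fitted arms. Those in the TGF-beta list, 3 with miR-744-5p, spanned 1 to 5 with a library left out, with 1 without model replicate 2 or 4 or Keluoxin replicate 1 or 6 and 5 without model replicate 1, and numbered 1 with no filter.

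Replicate numbers in the titles did not pair the samples: deviations of same-numbered libraries correlated between 0.0153 and 0.212, and 2 of 12 libraries correlated best with their own number. With the replicate number as a block, the 5p log2 fold change was -0.95, the 3p one 0.63, the arm ratio -1.56, the leading end share -0.50 (adjusted p = 0.0127), the inner difference 0.73 (adjusted p = 0.00958) and the G- and C-tailed shares 1.12 and 1.59. Calls numbered 137 over all arms, 10 in the list of hosted miRNAs and 1 in the TGF-beta list. The 3p values rest on as few as 3 reads in a library.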
